A study of Mus musculus with 6 samples.

Results

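The immediate early genes Fos, Fosb, Fosl2, Jun, Junb, Egr1, Egr2, Nr4a1, Arc and Npas4 were followed array by array in the hypothalamus of obese mice treated with GSK-J4 or vehicle. They were chosen by name, and every probe whose gene name on the array equals one of the 10 symbols was taken, which gave 14 of 56605 probes and 10 of 37074 gene names. Of the 14 probes, 11 gave a signal well above background throughout 1 group or both and were tested, and these cover all 10 genes. No member differed between the groups after adjustment, and the arrays of both groups overlapped for each of them. The widest variation lay within the groups, where Fos, Fosb, Egr1, Egr2, Junb, Nr4a1 and Arc were all lowest on the same vehicle array and all lowest on the same GSK-J4 array.

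Hypothalamic RNA of 6 male C57BL/6J DIO mice was hybridized, 1 mouse to an array, with 3 arrays labelled vehicle and 3 labelled GSK-J4 (replicates 1 to 3 of each). DIO mice are obese from diet, here a diet of 60 kcal% fat given for 16 weeks from the age of 6 weeks, and both groups carried this background. GSK-J4 is a cell-permeable inhibitor of Kdm6a and its relative Kdm6b, the demethylases that take the repressive mark H3k27me3 off histones. The dose was 30 mg/kg in the treated mice and 0 mg/kg in the controls, which received the vehicle. Per the methods the injections were intraperitoneal at ZT 2 h and the tissue was taken at ZT 6 h, ZT being the time since lights on, so the tissue came after an injection in both groups. The series places the collection on day 4, whereas the methods describe a longer course and do not name the day of the arrays. There was no lean, untreated or uninjected group. The comparison asks whether inhibition of the demethylase moved the genes that report recent stimulation of neurons.

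Immediate early genes are transcribed within minutes of a stimulus, because the proteins that switch them on are already in the nucleus and need only be phosphorylated. Calcium entry and growth factors act through the MAP kinases and calcium-dependent kinases on SRF with its partners and on CREB, which sit on CArG boxes and cAMP response elements (CRE) of these genes. The mRNAs are short-lived, so that their level follows the last hour or so of activity, and Fos or Arc is widely used in the brain as a mark of recently active neurons. Most of the products are transcription factors for a later wave of genes, while Arc acts at the synapse.

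Promoters of 8 of the 10 genes were found in the RefSeq promoter table (GRCm38.p6), with 12 windows of 300 bases from 250 bases before to 50 after each listed start. Arc and Egr1 had no entry. Each window was searched on both strands for the full CRE (TGACGTCA), the CRE core (TGACG, which the full CRE contains), the CArG box, the AP-1 site to which Fos and Jun proteins bind (TGANTCA) and the Egr site (GCGNGGGCG). The 250 bases before the start are shown for the genes that varied most within a group (Fos, Egr2 and Npas4) and for Fosb, which had the lowest unadjusted p. They read 5′ to 3′ along the gene, and capitals mark the motifs found.
Fos, chr12:85473640-85473889 (+ strand): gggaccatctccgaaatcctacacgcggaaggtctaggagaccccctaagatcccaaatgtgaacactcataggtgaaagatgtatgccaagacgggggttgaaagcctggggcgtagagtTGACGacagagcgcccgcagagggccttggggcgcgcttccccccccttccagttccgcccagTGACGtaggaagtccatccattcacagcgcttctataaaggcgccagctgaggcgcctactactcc
Egr2, chr10:67537619-67537868 (+ strand): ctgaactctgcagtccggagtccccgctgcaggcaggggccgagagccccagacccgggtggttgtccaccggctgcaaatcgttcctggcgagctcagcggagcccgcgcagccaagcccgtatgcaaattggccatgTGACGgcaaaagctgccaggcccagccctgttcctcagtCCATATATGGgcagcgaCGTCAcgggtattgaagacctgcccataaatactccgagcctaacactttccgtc
Npas4, chr19:4989972-4990221 (- strand): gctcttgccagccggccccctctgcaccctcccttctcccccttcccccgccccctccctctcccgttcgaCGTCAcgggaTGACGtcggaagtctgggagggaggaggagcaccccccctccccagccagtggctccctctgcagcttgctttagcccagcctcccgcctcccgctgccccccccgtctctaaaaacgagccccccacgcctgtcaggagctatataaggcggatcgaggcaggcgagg
Fosb, chr7:19310046-19310295 (- strand): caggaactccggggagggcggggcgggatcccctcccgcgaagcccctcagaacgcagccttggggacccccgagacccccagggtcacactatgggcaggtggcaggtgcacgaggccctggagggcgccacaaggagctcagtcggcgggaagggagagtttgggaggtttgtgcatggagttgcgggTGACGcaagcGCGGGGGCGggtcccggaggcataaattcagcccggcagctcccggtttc
CRE cores were present in the windows of 6 of the 8 genes (Fos, Fosb, Junb, Egr2, Nr4a1 and Npas4), compared with 23% of the 27025 genes in the table, a gene being counted when any of its windows matched. The windows shown of Fos, Egr2 and Npas4 hold 2 each, and that of Nr4a1 holds 4. A CArG box was found for 1 gene, Egr2, compared with 1.81% of the genes in the table. In the Egr2 window shown it lies between the cores, and 4 of the 5 windows of Egr2 hold a CArG box, 3 of them the same one because these windows overlap. Egr sites were in the windows of 3 genes (Fosb, Fosl2 and Nr4a1), compared with 6.27%, and neither the full CRE nor the AP-1 site was found in any of the 8, compared with 2.03% and 8.97%. The window of Jun held none of the 5 motifs. These are matches of letters in a short window and were not measured on the arrays.

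Where several probes carry the name of a member, they read different stretches, and the first 30 of their 60 bases are shown for Junb and Fosb because not all of their probes rose above background.
Junb, brightest probe: ttcgtgtctaaagtctattttaagatgtgt
Junb, second probe: agggctttgcggacggttttgtcaaagccc
Junb, remaining probe: caatcactccaccaactaagccaaattccc
Fosb, bright probe: actgccgaccacaattcattgactccatag
Fosb, dim probe: ccttcttgctctgtaaactctttagacaaa
The second Junb probe lies 1038 bases from the brightest, and the remaining one lies 4208 bases away and belongs to another transcript record (AK044253). The dim probe of Fosb lies 1978 bases from the bright one. The remaining Junb probe and the dim Fosb probe were well above background on 0 of 6 arrays. A further probe of Fosl2, 4988 bases from its bright one, was well above background on 1 GSK-J4 array and on no vehicle array. These 3 probes were not tested, and values of different probes were not set against each other, since each probe binds with its own strength.

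Slide 1 carries the 3 vehicle arrays and slide 2 the 3 GSK-J4 arrays, each scanned on its own occasion, so the slide and scan cannot be told apart from the treatment in the differences below. The 75th percentile of the raw signal was 787 to 916 on the vehicle arrays and 406 to 461 on the GSK-J4 arrays, and no probe was saturated. The values below are the deposited log2 signals, which the authors made equal in distribution across arrays by quantile normalization. Differences are GSK-J4 minus vehicle on that log2 scale, from limma fitted to all 34443 kept probes with Benjamini-Hochberg adjustment. A probe was called where the adjusted p did not exceed 0.05.

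Of the 11 member probes, 0 were called, where 16.8% of all kept probes were called. Likewise 0 passed the thresholds of the methods (1.5-fold with an unadjusted p up to 0.05), compared with 12.6% of all kept probes. At an unadjusted limma p under 0.05 there was 1 member probe, that of Fosb, beside 36.5% of all kept probes. For 0 of the 10 genes did the 3 arrays of one group lie apart from the 3 of the other on the brightest probe, while they did so for 45.6% of all kept probes. The median difference was -0.06 over the 11 member probes and 0.02 over all kept probes. Over so few probes these counts are a description, and they do not set the members apart from the array as a whole. The 95% interval of the difference lay within 1.5-fold in both directions (0.585 on the log2 scale) for 6 probes, which are all kept probes of 5 genes (Fosl2, Jun, Junb, Nr4a1 and Arc), and reached past 1.5-fold for the other 5 (Fos, Fosb, Egr1, Egr2 and Npas4).

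**Figure D1:**
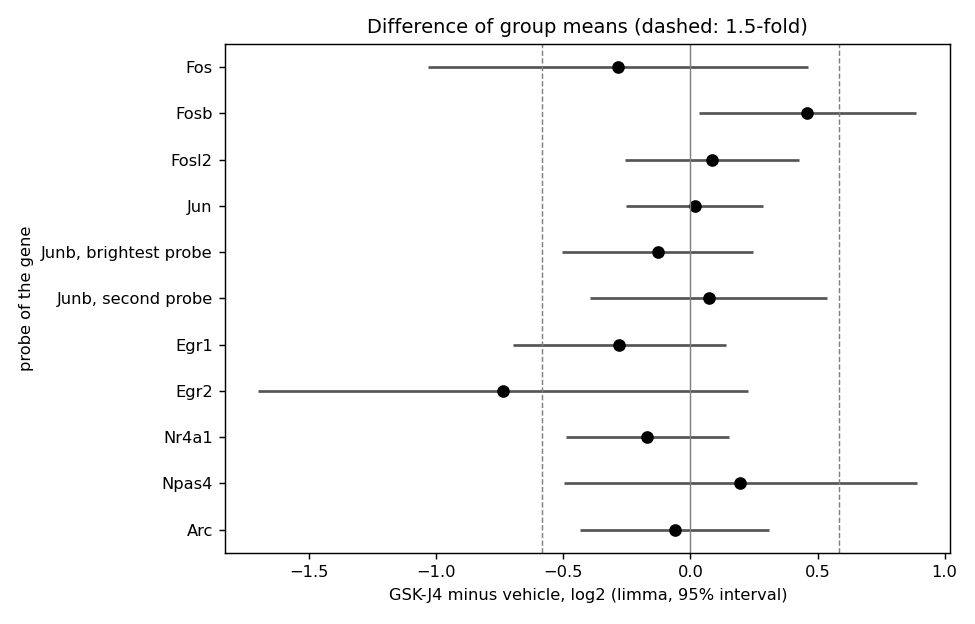
Difference of the group means, GSK-J4 minus vehicle, on the log2 scale for the 11 kept probes of the members, with the 95% interval from limma (n = 3 arrays in each group). The dashed lines mark 1.5-fold, and the interval of Fosb alone leaves out 0.

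Fos, Fosb and Fosl2 encode the Fos proteins, which pair with Jun proteins into the AP-1 transcription factor. Fos is the member most used to map active neurons. Its signal (chromosome 12 of mm9, 86818118 to 86818177) was 11.28, 11.22 and 10.45 on vehicle arrays 1 to 3 and 11.11, 10.28 and 10.71 on GSK-J4 arrays 1 to 3. The lowest array of each group stood well below the other arrays of its group, and the groups overlapped over most of their range. The difference was -0.29 with a standard error of 0.30 and a 95% interval from -1.03 to 0.46 (limma adjusted p = 0.53), an interval that holds both a decrease past 1.5-fold and a smaller increase. Single arrays moved it from -0.55 without vehicle array 3 to -0.08 without GSK-J4 array 2, with no call.

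Fosb is known for a truncated, long-lived product that builds up in neurons with repeated stimulation, and both forms fall under 1 name here. The bright Fosb probe (chromosome 7 of mm9, 19888168 to 19888227) read 10.25, 10.36 and 10.07 on the vehicle arrays and 10.90, 10.33 and 10.82 on the GSK-J4 arrays. GSK-J4 arrays 1 and 3 were above every vehicle array, whereas GSK-J4 array 2 fell between vehicle arrays 1 and 2. The difference was 0.46 with a standard error of 0.17 and an interval from 0.03 to 0.89. This had a limma p of 0.039 before adjustment and 0.12 after it, and the exact permutation test over the 20 orders of the arrays gave a two-sided p of 0.2, with 0.1 the smallest that 3 arrays against 3 allow. Without GSK-J4 array 2 the difference was 0.63 (limma adjusted p = 0.038), which is the single alternative that called a member.

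Fosl2 encodes Fra-2, a Fos protein that is induced more slowly than Fos. Its signal (chromosome 5 of mm9, 32460076 to 32460135) was 11.58, 11.52 and 11.54 on the vehicle arrays and 11.93, 11.49 and 11.47 on the GSK-J4 arrays. The vehicle arrays lay close together, over a range of 0.055, and a single GSK-J4 array stood above them while the other two were below. The difference was 0.08 with a standard error of 0.14 (limma adjusted p = 0.69).

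Jun and Junb encode the partners of the Fos proteins in AP-1, of which Jun is the stronger activator. The signal of Jun (chromosome 4 of mm9, 94716928 to 94716987) was 13.21, 13.30 and 13.28 on the vehicle arrays and 13.36, 13.41 and 13.07 on the GSK-J4 arrays. It was among the steadier members, with GSK-J4 array 3 the lowest of the 6, and its difference of 0.02 had a standard error of 0.11 (limma adjusted p = 0.93). The sign of this small value turned to -0.23 (limma adjusted p = 0.23) when the trend on probe GC content was removed, and the value was 0.27 (limma adjusted p = 0.16) with scaling to the 75th percentile, neither of them a call.

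Junb was read by the brightest probe (chromosome 8 of mm9, 87500843 to 87500902) at 13.46, 13.53 and 13.07 on the vehicle arrays and at 13.24, 13.06 and 13.37 on the GSK-J4 arrays. Its second probe (87501881 to 87501940) gave 7.73, 7.61 and 7.08 on the vehicle arrays and 7.58, 7.40 and 7.66 on the GSK-J4 arrays. Both probes put vehicle array 3 lowest among the vehicle arrays and GSK-J4 array 2 lowest among the GSK-J4 arrays. Between the groups the brightest probe gave -0.13 with a standard error of 0.15 (limma adjusted p = 0.57) and the second 0.07 with a standard error of 0.19 (limma adjusted p = 0.81). The value of the brightest probe turned to 0.12 with scaling to the 75th percentile and to 0.19 with the GC trend removed.

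**Figure D2:**
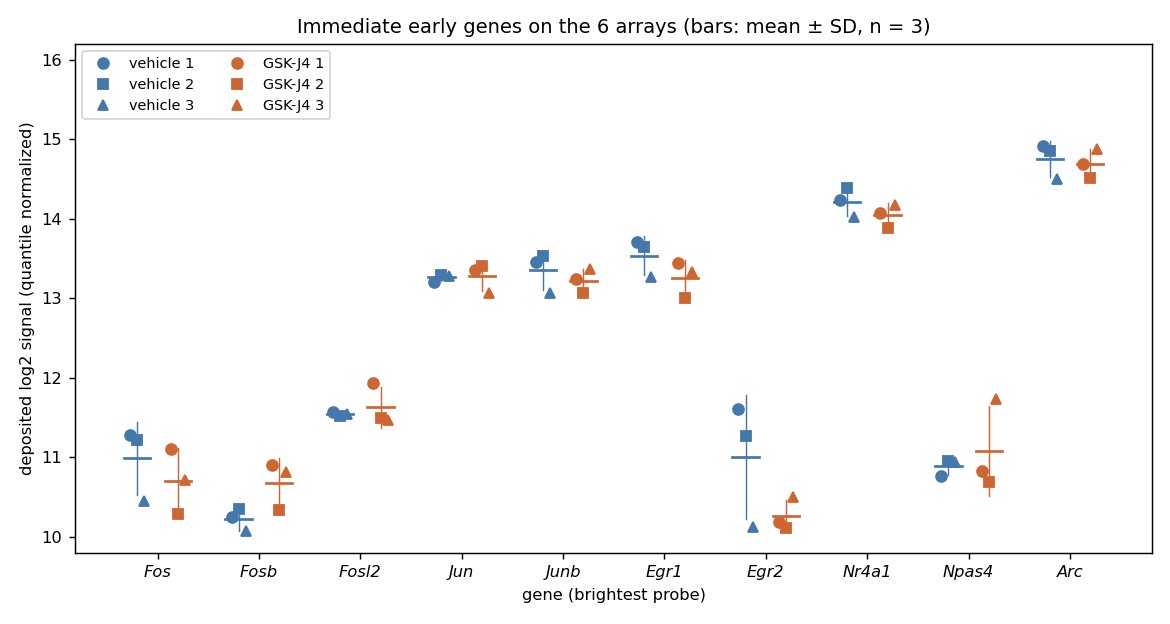
Deposited log2 signal of the brightest probe of each member on the 6 arrays (circle, square and triangle for replicates 1, 2 and 3, vehicle in blue and GSK-J4 in orange), with horizontal bars for the group means and vertical lines for the SD (n = 3). The groups overlap for all 10 genes, and levels of different genes are not comparable because each comes from its own probe.

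Egr1 and Egr2 encode zinc finger transcription factors that bind GC-rich sites, and Egr1 is induced in neurons together with Fos. The Egr1 probe, on chromosome 18, read 13.71, 13.64 and 13.26 on the vehicle arrays and 13.44, 13.00 and 13.33 on the GSK-J4 arrays. Vehicle array 3 and GSK-J4 array 2 were again lowest in their groups. The difference was -0.28 with a standard error of 0.17 and an interval from -0.70 to 0.14 (limma adjusted p = 0.28). Under all 19 alternatives run for it the value stayed below 0, from -0.42 to -0.02, and none called it. Several of these alternatives change only the filter or the test and leave the difference itself as it is. Their sign was therefore fixed in advance.

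Egr2, also called Krox20 and known for its role in myelination by Schwann cells, had the largest difference and the largest spread among the members. Its signal (chromosome 10 of mm9, 67004758 to 67004817) was 11.61, 11.27 and 10.12 on the vehicle arrays and 10.18, 10.12 and 10.50 on the GSK-J4 arrays. Vehicle arrays 1 and 2 were above all the GSK-J4 arrays, while vehicle array 3 was level with the lowest of them. The group means were 11.00 ± 0.78 (SD, n = 3) and 10.27 ± 0.20 (SD, n = 3). The difference of -0.74 had a standard error of 0.39 and an interval from -1.70 to 0.22 (limma adjusted p = 0.23, exact permutation test two-sided p = 0.3). Leaving out vehicle array 3 moved it to -1.18 (limma adjusted p = 0.068), which then passed the thresholds of the methods, and leaving out vehicle array 1 moved it to -0.43 (limma adjusted p = 0.47). With each of the other arrays left out it lay between -0.85 and -0.60.

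Nr4a1, or Nur77, is an orphan nuclear receptor. Its signal (chromosome 15 of mm9, 101105071 to 101105130) was 14.24, 14.38 and 14.02 on the vehicle arrays and 14.07, 13.88 and 14.18 on the GSK-J4 arrays. The groups overlapped, and each had its lowest value on the array on which Fos was lowest. The difference was -0.17 with a standard error of 0.13 and an interval from -0.49 to 0.15 (limma adjusted p = 0.39). With scaling to the 75th percentile in place of quantile normalization it turned to 0.13.

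Npas4, a transcription factor switched on by calcium in neurons and little by other stimuli, was the member least like Fos over the arrays. It read 10.77, 10.95 and 10.94 on the vehicle arrays and 10.83, 10.69 and 11.73 on the GSK-J4 arrays (chromosome 19 of mm9, 4984356 to 4984415). GSK-J4 array 3 alone stood above the rest, and vehicle array 3 was not low. The difference was 0.20 with a standard error of 0.28 (limma adjusted p = 0.64), and it turned to -0.13 (limma adjusted p = 0.41) without GSK-J4 array 3.

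Arc, whose protein removes AMPA receptors from synapses and whose mRNA travels into dendrites, read 14.92, 14.85 and 14.50 on the vehicle arrays and 14.70, 14.51 and 14.87 on the GSK-J4 arrays (chromosome 15 of mm9, 74499597 to 74499656). The groups covered nearly the same range. The difference was -0.06 with a standard error of 0.15 and an interval from -0.43 to 0.31 (limma adjusted p = 0.79). Scaling to the 75th percentile turned it to 0.33 (limma adjusted p = 0.15), with no call.

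Within the vehicle group, array 3 was the lowest for 7 of the 10 members and the highest for none. Over all kept probes array 3 was the lowest of the vehicle arrays for 29%, which is below an equal share among the 3 arrays. It lay below the mean of vehicle arrays 1 and 2 by 1.32 for Egr2, 0.80 for Fos, 0.42 for Junb and 0.41 for Egr1. Thus 4 members were lower there by at least 0.4 on the log2 scale, as were 5.19% of all kept probes. Arc, at -0.38, fell just short. The array was singled out by these same values, and the threshold of 0.4 was not a planned setting. The shares are therefore a description only. Fosl2, Jun and Npas4 were the members that did not have their lowest vehicle value on array 3.

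Within the GSK-J4 group, array 2 was the lowest for 8 of the 10 members, compared with 32.4% of all kept probes. The exceptions were Jun, which was highest there, and Fosl2. This array too was singled out by the values of the members. The median over the members of array 2 minus the mean of the other GSK-J4 arrays was -0.26, compared with -0.01 over all kept probes. The mean log2 signal of the 10 members was 12.50, 12.50 and 12.13 on the vehicle arrays and 12.38, 12.08 and 12.41 on the GSK-J4 arrays. Each group thus held an array with a low mean, and the spread within the groups exceeded the difference between them. In bulk tissue fewer active cells and less RNA in each cell cannot be told apart, and the cause of the low arrays was not tested.

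**Figure D3:**
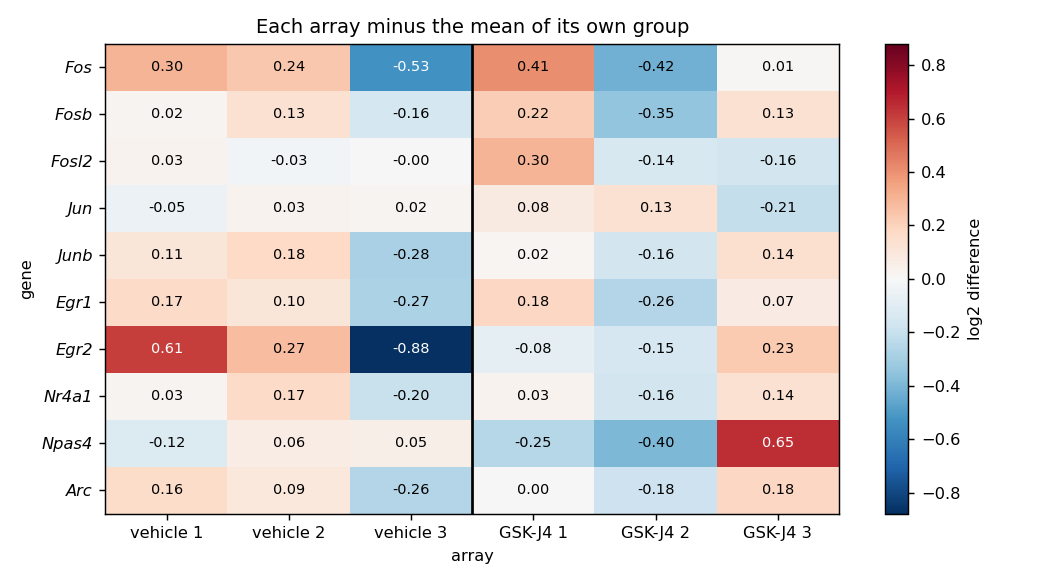
Log2 signal of each array minus the mean of its own group of 3, for the brightest probe of each member. Vehicle 3 and GSK-J4 2 hold most of the negative values, down to -0.88 for Egr2 on vehicle 3, whereas Jun differs from the pattern and Npas4 reaches 0.65 on GSK-J4 3.

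The residual SD within groups, pooled over both, was 0.57 for Egr2, 0.44 for Fos and 0.41 for Npas4, compared with a median of 0.162 over all kept probes. These lie at the 94th, 90th and 88th percentile of the kept probes. Jun, with 0.13, was at the 41st percentile. The most variable members are thus the ones whose group difference is the least well determined.

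The closeness of the other genes to Fos was measured as the root mean square difference between centred log2 values over the 6 arrays, for 20225 genes detected on every array. Egr1 came 4th with 0.173, and Junb came 60th, Nr4a1 109th and Arc 113th. Fosl2 was 1498th, Egr2 3979th, Jun 8116th, Fosb 9157th and Npas4 16304th. The genes nearest to Fos were Apold1 (0.119), Espl1 (0.162) and Lypd2 (0.169), with Ifna1 (0.180) after Egr1. Apold1, which encodes an endothelial protein, was likewise lowest on vehicle array 3 (7.79, with 8.77 and 8.66 on vehicle arrays 1 and 2) and on GSK-J4 array 2 (7.45). This measure rests on 6 arrays and favours genes whose spread is like that of Fos, and is a description only.

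Beside the members, 72 further genes of the same response were taken in 4 lists, with 71 of the 72 kept on 124 probes. Of these probes 6 were higher and 5 lower in GSK-J4 (limma adjusted p up to 0.05), or 8.87% in all where all kept probes gave 16.8% (8.39% higher and 8.42% lower). The balance of these calls depended on the scaling, with 16 higher and 4 lower when the arrays were scaled to the 75th percentile. The median difference of the 124 probes was 0.10.

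Among the other immediate early transcription factors, 1 of 29 probes (3.45%) was called. It was a dim probe of Klf10, a Krüppel-like factor, which read 3.91, 3.67 and 3.41 on the vehicle arrays and 4.55, 4.76 and 4.60 on the GSK-J4 arrays. It was 0.97 higher (limma adjusted p = 0.019), but was well above background on 1 of the 3 vehicle arrays, and the brightest Klf10 probe gave -0.15 (limma adjusted p = 0.22). Egr3 and Egr4, relatives of Egr1, gave -0.18 (limma adjusted p = 0.34) and -0.24 (limma adjusted p = 0.36). The brighter probe of Nr4a2, the relative of Nr4a1, gave 0.38 (limma adjusted p = 0.17) and its other probe 0.03 (limma adjusted p = 0.90). The brighter probe of Jund gave 0.25 (limma adjusted p = 0.093). On their brightest probes, 13 of 19 genes of this list were lowest on vehicle array 3 and 12 of 19 on GSK-J4 array 2. Among the activity-induced genes below the counts were 13 of 24 on vehicle array 3 and 10 of 24 on GSK-J4 array 2, and among the upstream regulators they were 10 of 22 and 7 of 22.

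Among the genes that neuronal activity induces downstream, 4 of 33 probes (12.1%) were called. Trib1, a pseudokinase, was higher by 0.44 (limma adjusted p = 0.033), from 9.67, 9.79 and 9.74 on the vehicle arrays to 10.23, 10.03 and 10.27. Zfp36, whose protein binds AU-rich mRNAs and speeds their decay, was higher by 0.58 (limma adjusted p = 0.046). Ptgs2, the inducible cyclooxygenase, was lower (-0.78, limma adjusted p = 0.049), and Nrn1, which encodes neuritin, was also lower on its brightest probe (-0.53, limma adjusted p = 0.027). On these 4 called probes the arrays of the groups did not overlap, as on 45.6% of all kept probes. A dimmer Nrn1 probe went the other way, at 0.51 (limma adjusted p = 0.23), with every GSK-J4 array above every vehicle array. Bdnf, a neurotrophin gene whose transcription follows activity, gave 0.00 with a standard error of 0.07 (limma adjusted p = 0.98), and the brightest of 4 Homer1 probes gave -0.29 (limma adjusted p = 0.14). The other Homer1 probes differed in sign, at 0.13 (limma adjusted p = 0.39), -0.89 (limma adjusted p = 0.11) and 0.08 (limma adjusted p = 0.61).

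The MAP kinase phosphatases switch the kinases off again and are themselves induced by them. Of their 10 probes 0 were called. Dusp1 gave 0.17 (limma adjusted p = 0.62), Dusp2 0.56 (limma adjusted p = 0.056) and Dusp6 -0.13 (limma adjusted p = 0.44). All 6 genes of this list were lowest on vehicle array 3 among the vehicle arrays, as were most members, and 3 of 6 were lowest on GSK-J4 array 2.

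Among the regulators upstream of the members, 6 of 52 probes (11.5%) were called. Map2k1, the kinase MEK1, was lower on both of its kept probes (-0.44, limma adjusted p = 0.036, and -0.58, limma adjusted p = 0.027). Mapk3, or ERK1, was higher by 0.39 (limma adjusted p = 0.024). The called probes of Mapk10 (0.35, limma adjusted p = 0.037) and Mef2d (0.69, limma adjusted p = 0.026) were higher, and neither was the brightest of its gene. Srf, which binds the CArG box, gave 0.16 (limma adjusted p = 0.25). With vehicle array 1, 2 or 3 left out, 0 of the 124 probes were called, and 10, 13 and 5 of all 34443 kept probes. Leaving out GSK-J4 array 1, 2 or 3 gave 2, 12 and 11 of the 124, and 2402, 4165 and 4018 of all kept probes. Each of these fits has fewer arrays to test than the main one, and the cause of the contrast was not tested.

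**Figure D4:**
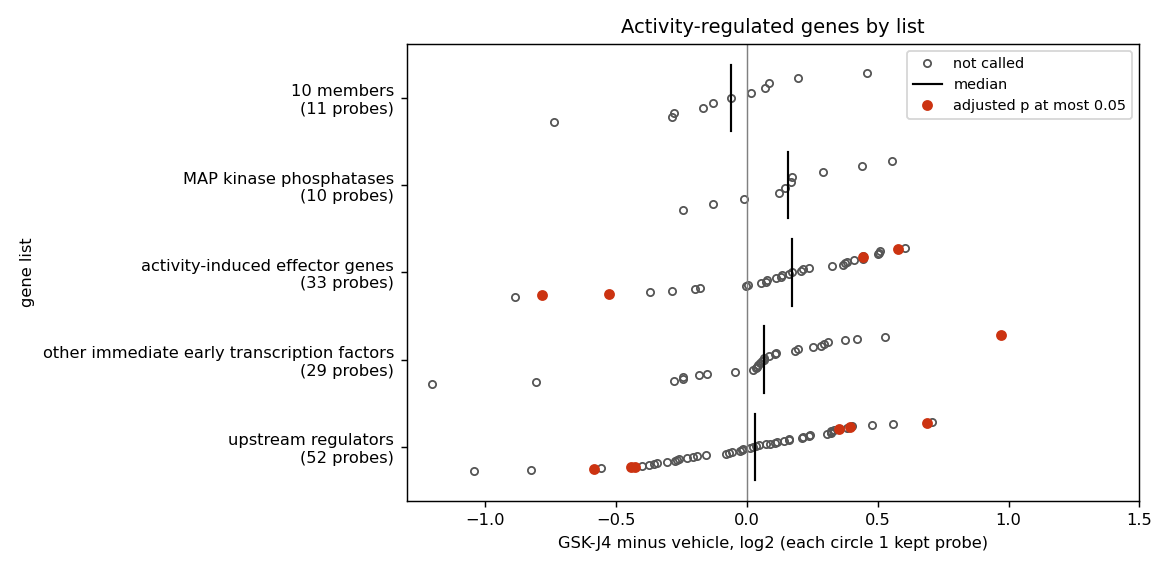
Difference GSK-J4 minus vehicle (log2) of every kept probe of the members and of 4 further lists of activity-regulated genes, 1 circle for each probe, with the median of each list as a line. Filled circles mark a limma adjusted p up to 0.05, and the members hold 0 of them.

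The differences over the array followed the GC content of the probes. Among probes of at most 35% GC the median difference was -0.16, with 1.74% called higher and 15.8% lower, and among those over 45% it was 0.23, with 20% called higher and 1.67% lower. The probes of Fos, Egr1 and Fosl2 have 35% GC, the brightest of Junb has 30% and that of Jun 51.7%. The part of GC content in the differences of the members was measured by removing its trend within each array, and 0 members were called with that correction. The values of several members moved, however, with Fos at -0.12, Egr1 at -0.11, Fosl2 at 0.25, Jun at -0.23, Junb at 0.19 and Arc at -0.28. Egr2 was at -0.74 with and without the correction.

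The tissue was checked against marker genes. Of 16 markers of hypothalamic neurons, 11 had a kept probe, with a median difference of 0.41. Called were 2 of the 11, beside 16.8% of all kept probes. These were Pomc, higher by 0.85 (limma adjusted p = 0.022), and Npy, higher by 0.42 (limma adjusted p = 0.027) in GSK-J4. Nr5a1 went the other way, at -0.30 (limma adjusted p = 0.55). The summed linear signal of the list was 40300 to 46500 on the vehicle arrays and 46500 to 47300 on the GSK-J4 arrays. These sums touched, with 46490 on vehicle array 2 and 46480 on GSK-J4 array 1. Avp, Trh, Pmch, Sim1 and Fezf1, which define hypothalamic cell groups, had no probe that passed the detection filter. Some of the kept markers were dim. Agrp (4.43 to 5.20) and Ghrh (4.61 to 5.45) lay below the median of all probes, 5.75, on every array. Hcrt read 4.72 to 5.98 and Oxt 5.21 to 6.44, whereas Sst read 15.14 to 15.36. All 10 markers of cortex and hippocampus were kept, and the summed linear signal of this list was 91900 to 103000 on the vehicle arrays and 72200 to 93500 on the GSK-J4 arrays, with 1 of the genes higher and 2 lower. Of the 9 microglial markers, all kept, 3 were higher in GSK-J4, namely the complement genes C1qa (0.41, limma adjusted p = 0.030), C1qb (0.46, limma adjusted p = 0.049) and C1qc (0.47, limma adjusted p = 0.025), while the summed signal of the list overlapped between the groups (37500 to 39000 on the vehicle arrays and 33500 to 44700 on the GSK-J4 arrays). The lists for astrocytes, oligodendrocytes, endothelium, blood, striatum, thalamus and pituitary held 0 called markers, with 1 of 8 markers kept for pituitary. The astrocyte sums did not overlap (51400 to 55100 on the vehicle arrays and 57000 to 60800 on the GSK-J4 arrays). Nor, narrowly, did those of endothelium (21200 to 22300 on the vehicle arrays and 22500 to 29900 on the GSK-J4 arrays). GSK-J4 arrays 1 and 2, with 22480 and 22490, were just above the highest vehicle sum of 22280. The median difference of the endothelial list was 0.03. The sums of oligodendrocytes, blood, striatum, thalamus and pituitary overlapped. The sum for choroid plexus, with 8 of 10 markers kept, was 197000 on vehicle array 1 and 14900 to 28100 on the others. Of the arrays on which most members were low, vehicle array 3 had the lowest cortical sum of its group (91880, with 102900 and 100500 on vehicle arrays 1 and 2), whereas GSK-J4 array 2 lay between the others of its group with 80490. The part of tissue composition in the values of the members was not tested.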

How the data were processed

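Hypothalamic RNA of 6 mice was measured on 1-colour Agilent SurePrint G3 mouse arrays. The authors scanned the arrays with Feature Extraction 10.7.1.1 and deposited the background-corrected intensity and flags of each spot, together with log2 values, which according to the methods come from quantile normalization in GeneSpring. The deposited log2 values were used as given, with 0 columns left unassigned. The intensity columns served for the detection flags and as an alternative. Probes flagged as well above background on the 3 arrays of 1 group or both were kept (34443 of 56605), and all were fitted with limma 3.58.1 in R 4.3.3 (lmFit, eBayes, two-sided, no covariate; files read with version 1.17.8 of data.table), with Benjamini-Hochberg adjustment over the kept probes. limma took the place of the t-test of the methods because it shares the variance between probes. Every probe of a member is reported, and the brightest kept probe stands for a gene. Single values were also tested by exact permutation. The series' text states a different mouse for each sample. The number of arrays limits the precision, as 3 against 3 cannot give a two-sided permutation p below 0.1. In 20 simulations of GSK-J4 against vehicle with 34443 probes, 200 of them changed by 1 on the log2 scale, 49.2% of these were recovered with 5.33% false calls, and 0% at a change of 0.5. The adjusted p depends on how many probes change, and in the data 16.8% were called, some with differences below 0.5. The recovered shares therefore do not give the sensitivity of the fit to the data. The members and lists were chosen with earlier results of these data known. Genes named from the 4 further lists are the called ones, of which 1 is counted but not reported here by name, and, chosen after their values were seen, relatives of the members and well-known examples. Probe coordinates are on mm9 as in the files, and promoters are on GRCm38.p6.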

Additional observations from a re-analysis of the deposited data

How the results depend on the processing

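No member was called under any of the alternatives run except without GSK-J4 replicate 2, which called Fosb, so that the number called ranged from 0 to 1 over the arrays left out. At the thresholds of the methods 1 member passed with no filter on dim probes (the dim Fosl2 probe), 1 without vehicle replicate 3 (Egr2) and 1 without GSK-J4 replicate 2 (Fosb), a range of 0 to 1 over the arrays left out. The number of members whose groups did not overlap was 2 of 10 with 75th percentile scaling (Fosb and Fosl2) and 2 of 10 with the GC correction (Fosl2 and Jun), the latter chosen after seeing the data. On the deposited values 45.6% of all kept probes did not overlap. That share was not computed under these alternatives, so the 2 genes are not set apart from the array. The further lists, with 11 called probes, gave 20 with 75th percentile scaling (16 higher and 4 lower), 17 with an intensity trend and robust variance, 7 with the GC correction, 7 with 1 probe for each gene, 6 with no filter, 4 with the mean of the probes of a gene, 3 with the methods' t-test with equal variances, 0 with it without equal variances, and 0 to 12 with an array left out. With the replicate number as a block 0 of them were called, with or without the GC correction, as were 0 members and 0 of all 34443 probes. The arrays share only a number, since same-numbered arrays correlated at 0.01, 0.03 and 0.08 in their deviations from the group means. Over all kept probes 5 to 4165 were called with an array left out. The main fit called 5788 of 34443. Counts over all probes were 8674 of 34421 with 75th percentile scaling, 6780 of 34443 with the intensity trend and 3605 with the GC correction. They were 3711 of 22117 with 1 probe for each gene, 3509 with the mean of the probes and 3765 of 56605 with no filter. The t-test called 3315 of 34443 with equal variances and 93 without. Of 190 alternative values of single members 174 kept their sign and side of the threshold. Many of these could not turn in sign, because the alternative leaves the difference itself unchanged. This holds for the filters, the intensity trend, the t-tests, the replicate block without GC correction and 1 probe for each gene. It also holds for the mean of the probes where a gene has 1 kept probe. Signs turned with 75th percentile scaling for Junb (0.12), Nr4a1 (0.13) and Arc (0.33), with normexp background correction for Jun (-0.028), and with the GC correction, blocked or not, for Jun (-0.23) and Junb (0.19). With an array left out Fos took values from -0.55 to -0.08, Fosb from 0.35 to 0.63, Junb from -0.27 to -0.04, Egr1 from -0.42 to -0.15, Egr2 from -1.18 to -0.43 and Nr4a1 from -0.27 to -0.08, and Jun took values from -0.050 to 0.12, Arc from -0.19 to 0.029, Fosl2 from -0.065 to 0.16 and Npas4 from -0.13 to 0.39. The cause of these changes was not tested. Signal over background was lower on the GSK-J4 arrays, where 32661 to 33209 probes were well above background against 35534 to 35988. The dim member probes of Fosb, Junb and Fosl2 were not well above background on any vehicle array.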
